A study of Drosophila melanogaster with 16 samples.

Results

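Smr, Bicra, tou, kis, Mnt and bun are 6 regulators of transcription that hold both anchors of at least 1 chromatin loop within their own gene body. They were selected on the loop table of the control embryos, as genes that its loops reach or lie in, and they are 6 of 13922 protein-coding genes on the compared chromosome arms (2L, 2R, 3L, 3R, 4 and X). Contacts were mapped by Micro-C, which digests fixed chromatin to nucleosomes and then ligates fragments that lie close together, in Drosophila melanogaster embryos at nuclear cycle 14. This is the stage of cellularisation, when the zygotic genome becomes broadly active. The values come from the yw control line, labelled WT, with 2 samples of staged whole embryos pooled from several collections. The other 14 samples, of the genotypes SF1_del, SF2_del, Dfd_3Ins, Scr_DTE, AntpDTE1, AntpII1, ScrEE1 and ScrEE2, were not analysed here. The loop and boundary lists give 1 value per feature for the yw line, with no value per sample. No replicate error, depth or test between samples can therefore be given, and a map of whole embryos averages over all their cells.

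Transcription cofactors act on chromatin or on other proteins rather than by recognising a specific DNA sequence themselves. Smr is the fly member of the SMRT and N-CoR corepressors, which bring histone deacetylase activity to unliganded nuclear receptors and other repressors. Bicra is related to human BICRA, a subunit of a non-canonical SWI/SNF remodelling complex, tou belongs to the BAZ2 family of bromodomain proteins that work with the ISWI remodeller, and kis is a trithorax-group remodeller of the CHD family. The working label of transcription cofactor is looser for the last pair of genes. Mnt is a DNA-binding bHLH-zipper protein that pairs with Max and represses growth genes that Myc activates, and bun encodes leucine-zipper proteins of the TSC22 family with roles in growth and in patterning of the follicular epithelium.

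A chromatin loop in such a map is a focal enrichment of contacts between 2 separate bins, its anchors, and a boundary is a bin across which contacts are depleted. The loop list held 313 loops, and the 6 genes took part in 9 of them. Both anchors lay in the gene for 8 of the 9 loops, against 26.8% of all loops with both anchors in the same protein-coding gene, a difference that the choice of the genes fixes. Each of the 6 genes held a whole loop, as did 76 (0.546%) of all protein-coding genes and 61 (9.16%) of the 666 protein-coding genes at least as long as Mnt, the shortest of the 6. An anchor of any loop lay in 2.00% of all protein-coding genes and in 16.4% of the 666 long ones. Mnt and bun held 2 whole loops each, and 8 genes in all held 2 or more, or 0.0575% of protein-coding genes and 1.20% of the long ones. These counts describe the selection and carry no test.

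**Figure D1:**
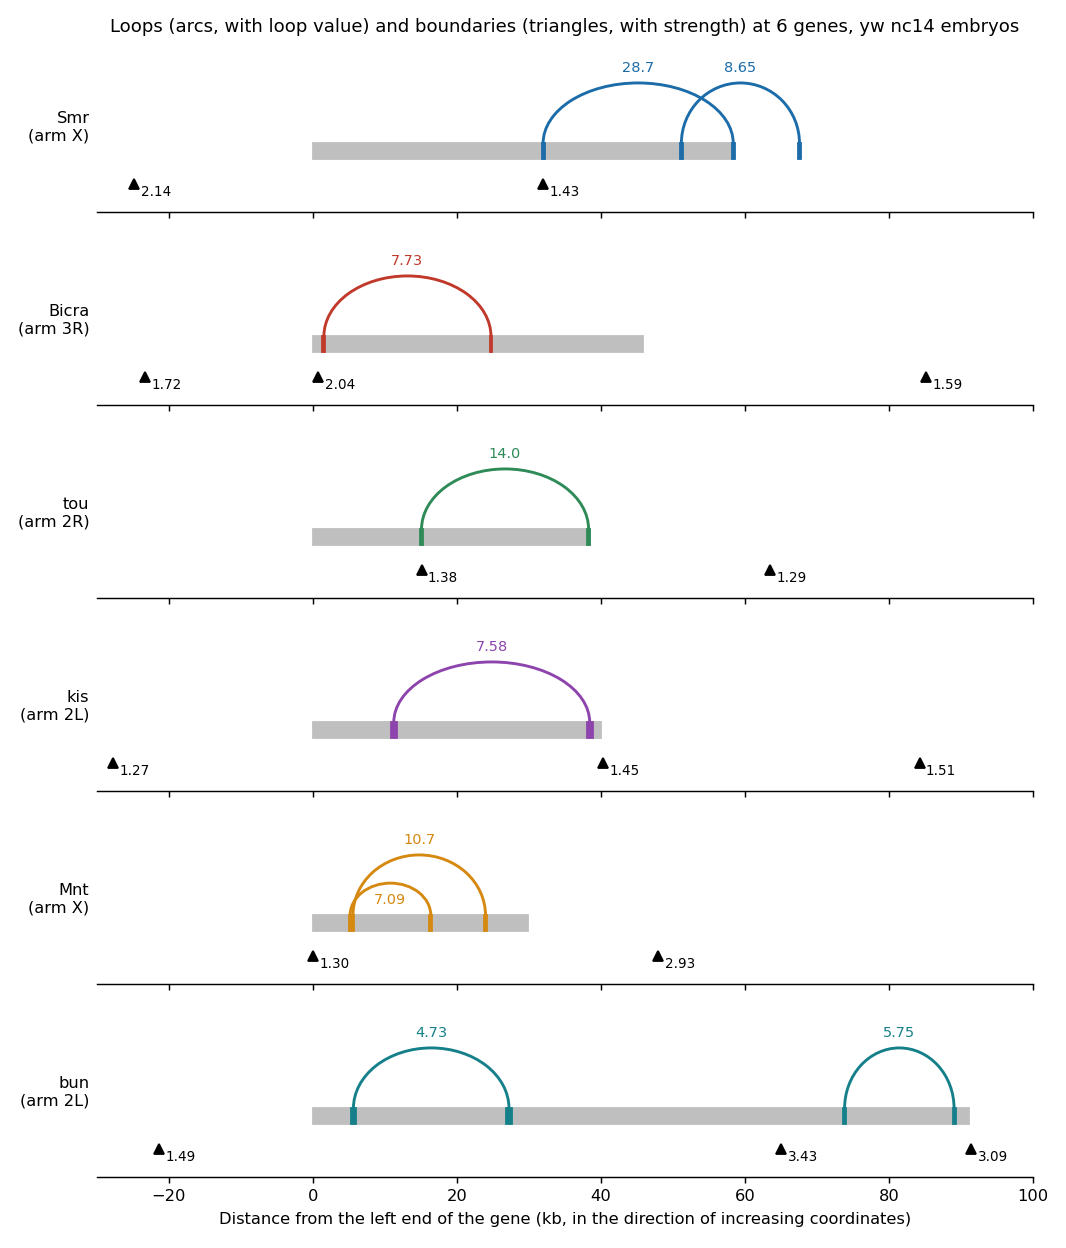
Loops and boundaries along the 6 genes. The x axis gives distance from the left end of each gene in kb, grey bars are gene bodies, coloured blocks are anchors, arcs join the anchors of a loop and carry its deposited value, and triangles mark boundaries with their deposited strength; boundaries farther than 30 kb to the left or 100 kb to the right are outside the frame. The arc of Smr with the value 28.7 and that of tou with 14.04 each start at a boundary and end at the right end of the gene.

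Smr lies on X (dm6 coordinates 12684203 to 12742618) and is 58.4 kb long. Its internal loop joined a bin at 12716001 to 12716400, in the middle of the gene, to the bin at 12742401 to 12742800 that contains the right end of the gene. The loop spanned 26.4 kb and had a value of 28.7, the highest of the 9 loops, rank 44 of all 313 loops and rank 4 of the 84 loops that lie within a protein-coding gene. This value is a score deposited by the authors with no stated unit, and it serves here only to order loops within the list. The left anchor coincided with a boundary of strength 1.43, a bin that was the only boundary in the gene. The right anchor also held the antisense RNA gene asRNA:CR45623, and the sequence between the anchors held the noncoding gene lncRNA:CR43963.

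The other Smr loop left the gene, and it was the only one of the 9 loops to do so. It ran 16.4 kb from 12735201, which is 7018 bp from the right end of Smr, to the bin at 12751601 in the neighbouring sequence. That bin overlapped the noncoding genes lncRNA:Vinr and lncRNA:CR44619. The loop passed over the right end of Smr and over the whole coding gene CG4004, had a value of 8.65 and stood at rank 146. The 2 Smr loops interlocked, since the left anchor of the outward loop lay between the anchors of the internal one. Both lay in an interval of 180.8 kb between the boundary inside Smr and the next one at 12896801, whose strength of 1.26 ranks 1890 of 1930.

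Bicra lies on 3R (29063040 to 29108948) and is 45.9 kb long. A single loop joined 29064401, which is 1361 bp from the left end of the gene, to 29087601 near the middle, over 23.2 kb. Its value was 7.73, rank 159, close to the median of 7.75 over all loops. The left anchor lay 400 bp from a boundary at 29063601 with a strength of 2.04, rank 441. That boundary was 561 bp from the left end of Bicra and 626 bp from the nearer end of Cul5, a cullin gene. It lay wholly within Bicra, close to where the pair of genes meet. The right anchor had no gene end within 2 kb.

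The remodeller gene tou lies on 2R (11577485 to 11616045) and is 38.6 kb long. Its loop had the same span as that of Bicra, 23.2 kb, and ran from 11592401 to 11615601. The value of 14.04, rank 94, was the second highest of the 9. As in Smr, the left anchor coincided with the only boundary in the gene, of strength 1.38 and rank 1549. Also as in Smr, the right anchor was at the right end of the gene, 45 bp from it. Within 1 kb of this anchor lay the ends of lncRNA:CR43907 (195 bp) and of the coding gene Egm (869 bp), and the snoRNA gene snoRNA:Psi28S-1180 lay 916 bp from the left anchor.

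The CHD gene kis lies on 2L (210735 to 250823) and is 40.1 kb long. Its loop covered 67.8% of the gene, the largest share among the 8 internal loops of the 6 genes. It ran 27.2 kb from 221601 to 248801, with a value of 7.58 and rank 162. The right anchor was 1223 bp from the right end of kis and overlapped lncRNA:CR44218. Between the anchors lay the small coding gene CG13693, the noncoding genes lncRNA:CR44222 and lncRNA:CR44221, the snoRNA gene snoRNA:kis-a and the microRNA gene mir-965. The boundary counted for kis, at 250801 with a strength of 1.45, contained the right end of the gene, with 23 bp of the bin in kis, and also an end of Rpp30, the next gene.

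Mnt lies on X (3671801 to 3701672), is 29.9 kb long, and held 2 loops that fanned out from almost the same place. Their left anchors were touching bins at 3676801 and 3677201, 5000 and 5400 bp from the left end of the gene. Their right anchors differed, at 3688001 and 3695601. The shorter loop spanned 11.2 kb with a value of 7.09 (rank 171), and the longer one 18.4 kb with 10.7 (rank 124). None of the 4 anchors had a gene end within 2 kb. The only boundary at the gene, of strength 1.30 and rank 1759, held its left end, with 200 bp of the bin in Mnt, and lay 99 bp from Parg, the gene of poly(ADP-ribose) glycohydrolase. The next boundary on the right, at 3719601 between Rala and Tlk, was among the stronger ones of the map, with a strength of 2.93 and rank 105.

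The gene bun lies on 2L (12455540 to 12546611) and at 91.1 kb is the longest of the 6. Its 2 loops lay at opposite ends of the gene, with a strong boundary between them. The left loop ran 21.6 kb from 12460801 to 12482401 with a value of 4.73, rank 267, the lowest of the 9 and near the bottom of the list, whose lowest value was 4.26. The right loop ran 15.2 kb from 12529201 to 12544401 with a value of 5.75 and rank 219. The boundary inside the gene, at 12520401, had a strength of 3.43 and rank 53. A further boundary at 12546801 lay 190 bp beyond the right end of bun, with a strength of 3.09 and rank 87. The right loop thus took up 57.6% of a domain of 26.4 kb whose 2 boundaries were both among the 100 strongest, as is the case for 1.51% of the 1924 intervals between neighbouring boundaries. The left loop took up 25.0% of the domain of 86.4 kb on the other side of the internal boundary. At their outer anchors, the microRNA gene mir-967 lay 701 bp from the left loop and lncRNA:CR42746 lay 58 bp from the right one.

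Compared with the whole list, the 9 loops were short, and their median value was close to that of all loops. Their spans ran from 11.2 to 27.2 kb with a median of 21.6 kb, against a median of 32.8 kb and an upper quartile of 51.6 kb over all loops. The other 76 loops that lie within a protein-coding gene had a median span of 24.8 kb. Values of the 9 had a median of 7.73, against 7.75 over all loops. Over the 8 internal loops alone the median value was 7.65, against 5.76 over the other 76 internal loops. This difference was not tested and was not matched for anchor width. Anchor width has to be taken into account, because loops with anchors of 400 bp had a median value of 12.2 and those with anchors of 800 bp one of 5.80. The loop of kis and the left loop of bun had 800 bp anchors, or 2 of 9, against 42.5% of all loops. Counted from the highest value, the median place of the 9 was at 50.8% of the whole list. It was at 67.2% among loops of the same anchor width, and at 46.5% among those of the same width and span range. Both of these settings were chosen after seeing the data.

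Among loops of the same anchor width and of 11.2 to 27.2 kb in span, the order of the genes changed in part. The internal loop of Smr ranked 3 of 86 such loops, and that of tou 16 of 86. The loop of kis, at rank 162 of the whole list, ranked 5 of 33 loops with wide anchors. The longer loop of Mnt ranked 29 of 86, the outward loop of Smr 40, the loop of Bicra 45 and the shorter loop of Mnt 49. The loops of bun stayed in the lower part, at 19 of 33 and 64 of 86. No value had a replicate, so it is not known which neighbours in this order differ.

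**Figure D2:**
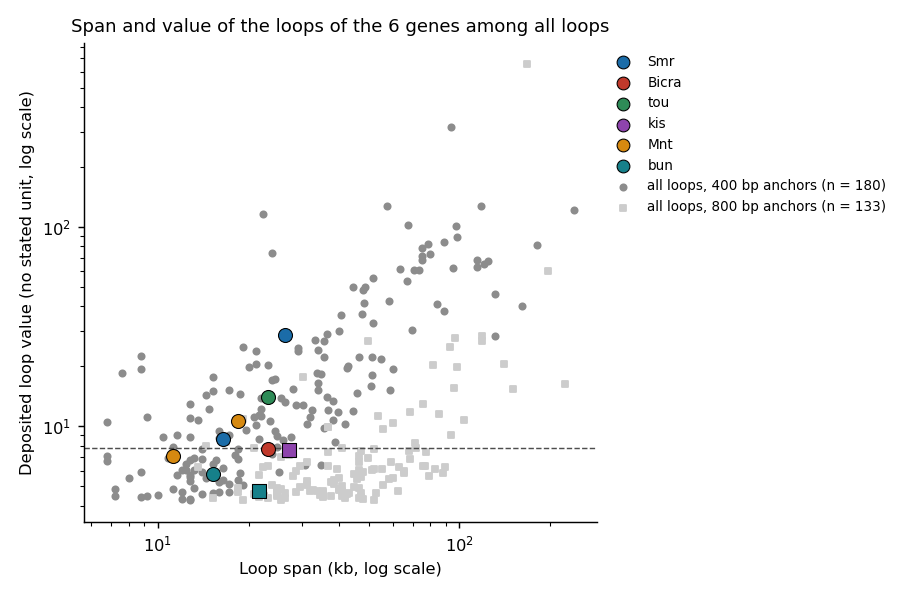
Span in kb (x axis, log scale) and deposited loop value (y axis, log scale, no stated unit) of all 313 loops in grey and of the 9 loops of the 6 genes in colour; circles have 400 bp anchors, squares 800 bp anchors, and the dashed line is the median value of 7.75. The internal loop of Smr (28.7) lies near the top for its span, and the left loop of bun (4.73) near the bottom of the list.

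The place of the loop along the gene fell into several patterns. In Smr, tou and kis and for the right loop of bun, the right anchor lay at 95.95% of the gene length or beyond, counted from the left end, and the left anchor lay inside the gene. In Bicra and for the left loop of bun, the left anchor lay within the first 6.22% and the right anchor inside. In Mnt no anchor was as close to an end in % of gene length, with left anchors at 17.4% and 18.7% and right anchors at 54.9% and 80.3%. These patterns depend on gene length. In bp, the left anchors of Mnt lay 5000 and 5400 bp from the left end, and that of the left bun loop 5261 bp. The gene table used here has no strand, so it cannot be said which of these ends are transcription starts. The 8 internal loops covered 16.7% to 67.8% of their gene with a median of 47.9%, against a median of 48.1% over the 78 pairs of another gene and its internal loop. The distance from the nearer gene end to its anchor had a median of 1586 bp over the 8, against 4646 bp over the 78. The 6 genes were also shorter, with a median length of 43.0 kb, against 59.0 kb over the other 70 genes with an internal loop. Mnt and bun each gave 2 of the 8 loops, and the difference in distance was not tested.

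Few of the 18 anchors lay within 1 kb of a coding gene end. Only the right anchors of Smr (0 bp) and tou (45 bp) did, or 2 of 18, against 41.7% of the 614 different anchors in the list. Choosing genes with both anchors inside favours anchors away from gene ends, so this count was in part set by the selection. Counted by gene, Smr and tou were the 2 of 6 that had a gene end this close to any anchor, against 2.14% of all protein-coding genes and 6.31% of the long ones. Ends of genes for long noncoding or antisense RNAs lay within 1 kb of 5 of the 18 anchors, against 12.2% of all anchors. These were the right anchors of both Smr loops, of tou, of kis and of the right loop of bun.

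**Figure D3:**
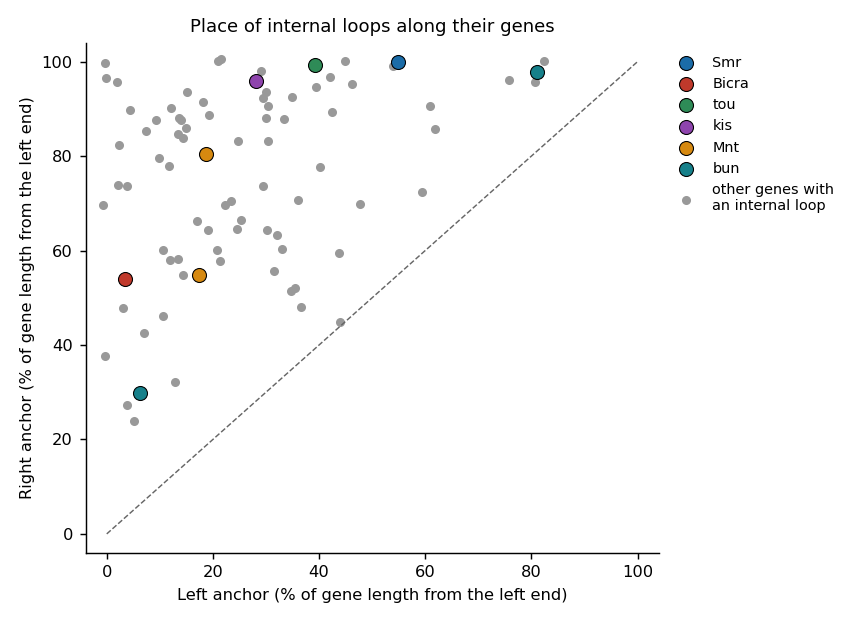
Place of the left anchor (x axis) and right anchor (y axis) of internal loops, in % of the gene length from its left end. Coloured points are the 8 internal loops of the 6 genes and grey points the 78 pairs of another gene and its internal loop; points near the top have a right anchor in the last part of the gene, as in Smr, tou, kis and the right loop of bun.

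Some genes held a loop in nearly the same relative place. Likeness was measured as the distance between the loops in the plane of left and right anchor place, in percentage points of gene length, over the 78 pairs. The closest match was brat, the growth and neural fate regulator on 2L, whose loop lay 0.0512 points from that of Bicra. Gene length (45.9 kb in each) and span (23.2 kb in each) were also alike, whereas the loop value was 7.73 in Bicra and 20.3 in brat. The next for Bicra was RhoU (6.03 points, value 5.65). The internal loop of Smr was most like those of Dscam1 (0.586 points, value 24.0), a gene of neuronal self-recognition, and stx (1.26 points, value 15.0). That of kis was most like B4 (2.37 points) and CG46339 (3.02 points), and that of tou most like sli (3.85 points), the ligand of midline axon guidance, and NK7.1 (4.77 points). The right loop of bun was most like the loop inside the Hox gene Ubx (2.23 points, value 9.05) and that of the atypical cadherin gene ds (2.59 points), and the left loop most like those of ps (3.50 points) and scrib (6.03 points). For the shorter loop of Mnt the nearest were Ten-a (2.97 points, span 117.6 kb) and CG46244 (4.85 points, span 45.6 kb), both with longer spans than in Mnt. For the longer loop of Mnt they were Ptp10D (5.55 points, span 38.4 kb) and bin3 (6.57 points, span 15.2 kb).

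Each of the 6 genes overlapped exactly 1 boundary bin. Among protein-coding genes a boundary bin overlapped 10.3% in all, 30.5% of the 666 long genes and 46.1% of the 76 genes with an internal loop, and 31.6% of these 76 overlapped exactly 1. In kis and Mnt the bin only straddled the gene end, which leaves 4 genes, Smr, Bicra, tou and bun, with a boundary bin wholly inside, against 19.8% of the long genes and 32.9% of the 76. The bin in Bicra lay 561 bp from the left end of that gene. The genes were picked for their loops and with earlier results of the map in view, so the excess over these shares is a description and was not tested. An end of Bicra, kis, Mnt or bun lay within 1 kb of a boundary, or 4 of 6, against 18.2% of all protein-coding genes and 28.1% of the long ones.

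**Figure D4:**
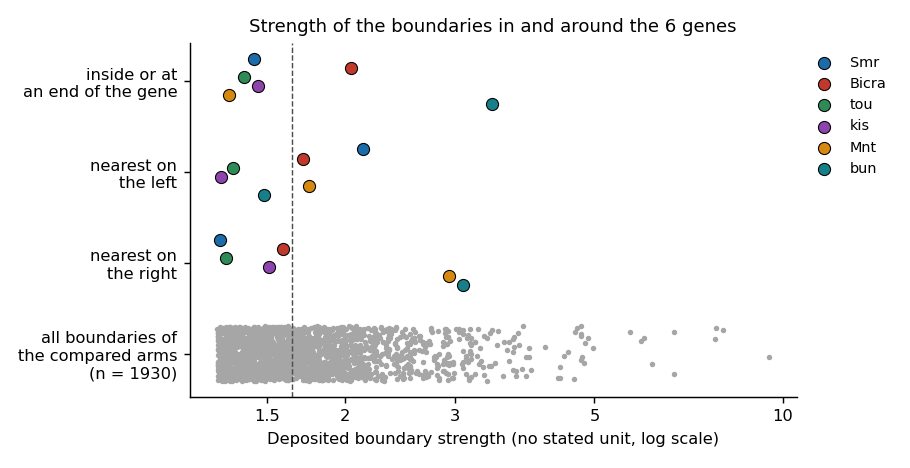
Deposited strength (x axis, log scale, no stated unit) of the boundary in each of the 6 genes or at its end, of the nearest boundary outside on the left and on the right, and of all 1930 boundaries of the compared arms (grey, spread vertically at random). The dashed line is the median of 1.64, and of the 6 boundaries in the top row those of bun (3.43) and Bicra (2.04) lie above it.

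Boundaries in 4 of the 6 genes were weaker than the median of all boundaries. A median splits the list evenly, so this count is near the share of the whole list. The 6 strengths were 1.43 in Smr, 2.04 in Bicra, 1.38 in tou, 1.45 in kis, 1.30 in Mnt and 3.43 in bun, with a median of 1.44 against 1.64 over the 1930 boundaries of the compared arms. The list starts at 1.2502, and a weaker boundary elsewhere would not be seen. The boundaries of tou and Mnt were below the lower quartile of 1.42, and those of Smr and kis lay between it and the median. With 6 genes, these counts too are near the shares that a quartile and a median set by definition. Around the genes, the nearest boundary on the left lay 21.1 (bun) to 101.5 kb (tou) from the gene, and the nearest on the right 0.190 (bun) to 154.2 kb (Smr). Between these outer boundaries there was no loop other than the 9. The domain at the middle of each gene measured 48.0 kb in Mnt, 48.4 kb in tou, 56.8 kb in Smr, 68.0 kb in kis, 84.4 kb in Bicra and 86.4 kb in bun, with a median of 62.4 kb. Domains taken at the middle of a gene in the same way had a median of 153.6 kb over the 666 long genes and 136.0 kb over the other 70 genes with an internal loop. In all 6 genes the boundary that overlapped the gene was an end of this domain. Only 30.5% of the long genes and 46.1% of the 76 with an internal loop overlapped one, so the sizes are not like for like. The loops of Smr lay outside its 56.8 kb domain, in the neighbouring one of 180.8 kb. The difference was not tested.

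None of the 9 loops had a boundary between its anchors, and only 7.67% of all loops had one, so this count is near that of the whole list. The anchors of Smr and tou that coincided with a boundary were 2 of 18, against 3.42% of all different anchors. With a gap of up to 400 bp allowed, the left anchor of Bicra was added (3 of 18, against 6.68%), and with up to 2 kb the right anchors of kis and of the right bun loop (5 of 18, against 11.9%). By gene, a boundary at an anchor of the internal loop was seen in 2 of the 6. Over the 35 genes with both an internal loop and a boundary the share was 14.3%, or 5 genes, with Smr and tou among them.

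Partners and relatives of the 6 proteins were examined in the same way. A list of 51 further cofactor genes was drawn up from textbook complexes, of which 50 were found in the gene table. It took in corepressors, SWI/SNF, ISWI, CHD and NuRD subunits, the MYC and MAX network, acetyltransferases, trithorax genes and the bun partner Madm. None of the 50 held both anchors of a loop, against 0.546% of all protein-coding genes, and 2 held 1 anchor, against 2.00%. With so few genes these counts are near the shares of all genes. Myc, the growth regulator that Mnt opposes, had an end in an anchor at 3372801 on X, from which a loop of 78.4 kb ran to 3451201. Both anchors of this loop also overlapped lncRNA:CR44999. The loop value of 82.2, rank 11 of the 313, exceeded every value in the 6 genes. Acf, a subunit of ISWI remodelling complexes, had an end at the right anchor of a loop of 21.6 kb, which led to sip3. That right anchor also overlapped Mccc1, and the loop had a value of 8.69 (rank 145).

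Gene length differed between the 6 and this list. The 6 genes had a median length of 43.0 kb, against 5.04 kb for the 50, and 3 of the 50 (osa, d4 and Nipped-A) were at least as long as Mnt. None of these 3 held an anchor, against 16.4% of the 666 protein-coding genes at least as long as Mnt. A list of 3 genes is too short to differ from that share. A boundary bin overlapped 14 of the 50 (28.0%), against 10.3% of all protein-coding genes, and 21 (42.0%) had an end within 1 kb of one, against 18.2%. The median length over all protein-coding genes was 2.16 kb, so these shares were not matched for length. The differences were not tested. The strongest at or in a gene were in d4 (3.09), Nipped-A (2.88), trx (2.57), a trithorax histone methyltransferase, and beside Sin3A (2.51), the scaffold of a deacetylase complex. HDAC3 and ebi, whose products work with Smr, had no boundary within 1 kb of an end, the nearest lying 5210 and 2665 bp away.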

How the data were processed

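Per the submitters' processing notes, BWA 0.7.17 aligned the reads to dm6. The sources used here do not give the further steps to the maps or say whether the 2 yw samples were pooled. Boundary strength and loop value were deposited by the authors as scores with no stated scale. The loop table has the column names of the SIP caller, per the file headers. After removal of 14 repeated entries, 1930 boundaries of 400 bp on the compared arms were kept, with 313 loops and 614 different anchors. No counts were used, so depth is unknown.

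Gene spans came from a RefSeq table of the Release 6 assembly, without strand. It holds no sequence, so the planned promoter motifs were not searched. Overlap meant at least 1 bp, and near meant within 1 kb. Span runs between anchor starts, and domains between starts of neighbouring boundaries. Interval counts (Python 3.11.15, pandas 2.3.3) were tested on simulated data. Members, lists and rules were chosen with earlier results of these data known. Named are the members, genes at their anchors and some of those at their boundaries or inside them. Also named are the 2 genes with the most similar loop, listed cofactors with an anchor or the strongest boundaries, and genes that overlap the anchors of their loops. The genes osa, HDAC3 and ebi were named after their values were seen. No test between groups was possible. Alternatives were stricter overlap, strength, value and distance settings.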

Additional observations from a re-analysis of the deposited data

How the results depend on the processing

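Loops of at least the median value left 4 of the 9 loops (both of Smr, that of tou and the longer one of Mnt) and 3 of the 8 internal loops, and lowered the share of protein-coding genes with an internal loop to 0.194%. That share was 9.16% among genes at least as long as Mnt. Boundaries of at least the median strength left 2 of the 6 in the genes (Bicra and bun), raised the median domain at the gene middles to 178 kb against 62.4 kb, lowered the share of protein-coding genes with a boundary to 4.45% (30.5% among the long genes with all boundaries), and left 0 anchors on a boundary (the last chosen after seeing the data). Member gene ends near an anchor numbered 5 within 2 kb and 1 inside the anchor, against 2 within 1 kb, and anchors near a boundary 5 within 2 kb (chosen after seeing the data), against 2 on one. The other alternatives moved their result by at most 1.5 times. These were anchors or boundaries wholly inside the gene (7 internal loops and 4 boundaries), ranking by the average peak-analysis score (median rank 136 against 159) and, also chosen after seeing the data, leaving out Smr (7 loops), a boundary within 400 bp of an anchor (3 anchors), and ranking by value within anchor width or within width and span (median at 67.2% and 46.5% of the list, against 50.8%). No paired analysis was possible because the lists give no value per sample. The lists hold only features above their own minimum, and a gene without a listed loop is not shown to lack one.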

Other observations

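The 2 X-linked genes and bun account for 6 of the 9 loops. In Mnt and Smr the pairs of loops overlapped each other along the gene, whereas the pair in bun did not and lay on either side of the boundary of strength 3.43. The nearest anchor of any other loop lay 39.1 kb from Mnt, 40.6 kb from bun, 94.4 kb from tou, 129.9 kb from Bicra, 295.0 kb from Smr and 450.8 kb from kis.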
